A study of Mus musculus with 18 samples.

Results

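The genes described here are 40 cell cycle genes, listed by name from replication and mitosis genes, with earlier results of these data known. Among them, 19 act in or before DNA synthesis (S phase), 19 act in G2 or mitosis (G2/M), and 2 encode D-type cyclins. All 40 were among the 38355 genes listed for each library, and all 40 were among the 16236 genes with enough counts to be tested. The tissue was cortex dissected at E12.5 from mouse embryos of strain C57BL/6. The 18 RNA sequencing libraries comprised 5 of the Dmrt3;Dmrt5 double knockout (double KO), 4 of the Dmrt5 knockout (Dmrt5 KO), 5 of the Dmrt3 knockout (Dmrt3 KO) and 4 of the wild type (WT). The comparison of these genotypes asks which transcripts of the early cortex depend on Dmrt3, on Dmrt5 or on both. Dmrt3 and Dmrt5 encode related transcription factors with a DM domain that are expressed in progenitors of the embryonic dorsal telencephalon, and the current symbol of Dmrt5 is Dmrta2. The labels give the genotypes without the design of the alleles, and they do not state whether each library is its own embryo, so p-values measure the spread between these libraries, which may be technical.

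At this stage most cells that line the ventricles of the cortex are cycling progenitors, whereas the neurons they produce leave the cycle. D cyclins pair with CDK4 and CDK6 in G1, and the retinoblastoma protein then releases E2F factors, which switch on cyclin E and the genes of DNA replication. Genes of G2 and mitosis peak later and are held in check in resting and G1 cells by the DREAM complex, which binds CHR elements near their start sites, whereas CCAAT boxes near the same start sites are bound by the activator NF-Y. In whole tissue, fewer cells of a type and less RNA per cell cannot be told apart.

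Total counts ran between 19602718 and 33072896 per library, and each member other than Fen1 had a mean of at least 23.1 CPM in each genotype (read counts scaled here to a common library size). Dmrt3 lay between 0 and 0.383 CPM in the double KO and between 0.232 and 0.398 CPM in Dmrt3 KO, against 52.0 to 61.8 CPM in WT. Dmrta2 lay between 1.66 and 4.90 CPM in the double KO and between 4.31 and 25.1 CPM in Dmrt5 KO, against 159.4 to 220.3 CPM in WT. The summed level of 14 radial glia and progenitor markers was at least 4415 CPM in every library. Libraries also differed within genotypes in their length slope, which is the change of a library's log2 CPM, relative to the mean of all libraries, per doubling of a gene's transcript length. Its values were -0.064, -0.028, -0.065, 0.099 and 0.377 in the double KO, -0.110, -0.073, 0.023 and 0.010 in Dmrt5 KO, -0.141, -0.132, -0.028, 0.058 and -0.082 in Dmrt3 KO, and 0.133, -0.227, -0.062 and 0.311 in WT. Double KO replicate 5 and WT replicate 4 stood highest and WT replicate 2 lowest, so the results below that change with this slope in the model, or without the 2 highest libraries, are given both ways. Within the double KO, replicate 4 stood apart in its markers of other cell types, with a summed level of 10 mesenchyme markers of 2088 CPM (40.5 to 350.6 CPM in the other double KO libraries), of 8 endothelial markers of 351.2 CPM (155.7 to 205.3 CPM), of 16 neuronal markers of 3787 CPM (6422 to 8872 CPM) and of 12 subpallial markers of 1790 CPM (2730 to 3307 CPM). Each other genotype also held a library with a high mesenchyme sum. These were WT replicate 4 at 2432 CPM, Dmrt3 KO replicate 5 at 2724 CPM and Dmrt5 KO replicate 4 at 1692 CPM. The other libraries of those genotypes had at most 1151, 1006 and 585.5 CPM. Dmrt3 KO replicate 5 and Dmrt5 KO replicate 4 also had the lowest neuronal sums of their genotypes, at 3920 and 4966 CPM.

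The start regions of 4 members are shown, since 3 of these genes carry the contrasts described below and the elements by which S-phase and G2/M genes are usually told apart lie near such starts. Each line gives the 200 bases before the RefSeq start (GRCm38.p6), 5′ to 3′ on the gene's strand, with matches in capitals on either strand to the E2F letters TTNNCGC with C or G at each N, the CHR letters TTNGAA with T or C at the N, and the letters CCAAT.
Mcm5 (chr8:75109309-75109508, plus strand): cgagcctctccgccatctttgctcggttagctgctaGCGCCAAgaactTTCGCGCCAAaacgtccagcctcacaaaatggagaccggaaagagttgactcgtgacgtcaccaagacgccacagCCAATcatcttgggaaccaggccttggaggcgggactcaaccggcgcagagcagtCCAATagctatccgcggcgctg
Ccne1 (chr7:38107491-38107690, minus strand): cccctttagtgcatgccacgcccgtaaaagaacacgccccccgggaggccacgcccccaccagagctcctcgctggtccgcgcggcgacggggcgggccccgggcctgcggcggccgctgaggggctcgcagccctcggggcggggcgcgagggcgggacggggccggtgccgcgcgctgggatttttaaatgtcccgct
Ube2c (chr2:164769729-164769928, plus strand): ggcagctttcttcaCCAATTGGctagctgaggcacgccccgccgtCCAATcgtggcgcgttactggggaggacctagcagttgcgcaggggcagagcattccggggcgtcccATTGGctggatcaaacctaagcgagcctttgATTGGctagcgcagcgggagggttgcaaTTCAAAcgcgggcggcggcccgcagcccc
Mki67 (chr7:135716380-135716579, minus strand): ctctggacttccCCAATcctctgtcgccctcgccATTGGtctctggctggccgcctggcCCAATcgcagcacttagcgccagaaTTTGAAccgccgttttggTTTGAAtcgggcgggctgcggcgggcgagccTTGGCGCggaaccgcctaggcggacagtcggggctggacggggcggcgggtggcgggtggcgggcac
Mcm5, a subunit of the replicative helicase, has 3 E2F matches, of which 2 overlap, and no CHR match. Mki67, which encodes the proliferation antigen Ki-67, and Ube2c, which encodes the ubiquitin-conjugating enzyme of the anaphase-promoting complex, both have CHR and CCAAT matches. Ccne1, which encodes cyclin E1, has none of these exact letters in the window, which says nothing about the factors themselves. In the 250 bases before the start, E2F letters were found in 7 of the 16 S-phase genes with a promoter in the table (43.8%), in 3 of 16 G2/M genes (18.8%) and in 7.89% of all 32851 promoters. CHR letters were found in 4 of 16 S-phase genes (25%), in 8 of 16 G2/M genes (50%) and in 17.1% of all promoters. CCAAT was found in 9 of 16 S-phase genes (56.2%), in 14 of 16 G2/M genes (87.5%) and in 33.8% of all promoters. These matches describe the letters only. No promoter entry was used for Mcm4, Gins2, Ccne2, Ccna2, Aurkb, Tpx2, Ccnd1 and Ccnd2.

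None of the 40 members was called in any of the 6 comparisons by edgeR's quasi-likelihood test at an adjusted p under 0.05, and none by DESeq2. Of all tested genes, 6.23% were called in double KO against WT. The share was 1.03% in Dmrt5 KO against WT, 0.0123% in Dmrt3 KO against WT, 3.7% in double KO against Dmrt3 KO, 0.333% in double KO against Dmrt5 KO, and 0.142% for the interaction, which tests whether the log2 change of the double KO departs from the sum of the changes of both single knockouts. At an unadjusted p under 0.05, 2 members passed in double KO against WT, 4 in Dmrt5 KO against WT, 4 in Dmrt3 KO against WT, 4 in double KO against Dmrt3 KO, 0 in double KO against Dmrt5 KO and 6 for the interaction. Over all tested genes the counts at that level were 2869, 1835, 1163, 2819, 764 and 1497 in the same order of comparisons. At the shares in Dmrt5 KO against WT, Dmrt3 KO against WT, double KO against Dmrt5 KO and the interaction, fewer than 1 call would fall among 40 genes, so 0 of 40 lies near the background in these 4 comparisons. At the shares of 6.23% and 3.7%, in double KO against WT and against Dmrt3 KO, few calls would fall among 40 genes. There too, 0 of 40 does not set the members apart.

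The precision for single members was read from their 95% intervals in the model without the length slope. These concern levels in whole tissue, with no allowance for the number of genes and comparisons. The 95% interval of the fold change lay within 2-fold in either direction for all 19 S-phase and all 19 G2/M members in each of the 5 comparisons of 2 genotypes. Within 1.5-fold lay the intervals of 30 of the 40 members in double KO against WT, 27 in Dmrt5 KO against WT and 26 in Dmrt3 KO against WT. The median log2 fold change of the S-phase members was -0.16 in double KO, -0.11 in Dmrt5 KO and 0.00188 in Dmrt3 KO, each against WT, beside medians of 0.00638, -0.0214 and -0.0036 over all tested genes. Of these 19 genes, 16, 16 and 9 had a value below 0 in the same 3 comparisons, beside 49.1%, 53% and 50.5% of all tested genes. The genes come from the same libraries and are not separate replicates. Relative to the WT mean, the S-phase median of single libraries was -0.46, -0.013, -0.076, 0.082 and -0.27 in the double KO. In WT it was -0.10, 0.26, 0.089 and -0.25. The median of the G2/M members was -0.0442 in double KO, -0.0748 in Dmrt5 KO and -0.0724 in Dmrt3 KO against WT. Of their 19 values, 16, 12 and 10 were below 0, beside the same shares of all tested genes. The 3 comparisons share the WT libraries. In the model with the length slope the S-phase medians were -0.130, -0.151 and -0.0385 and the G2/M medians -0.0259, -0.101 and -0.0468 in the same order.

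**Figure D1:**
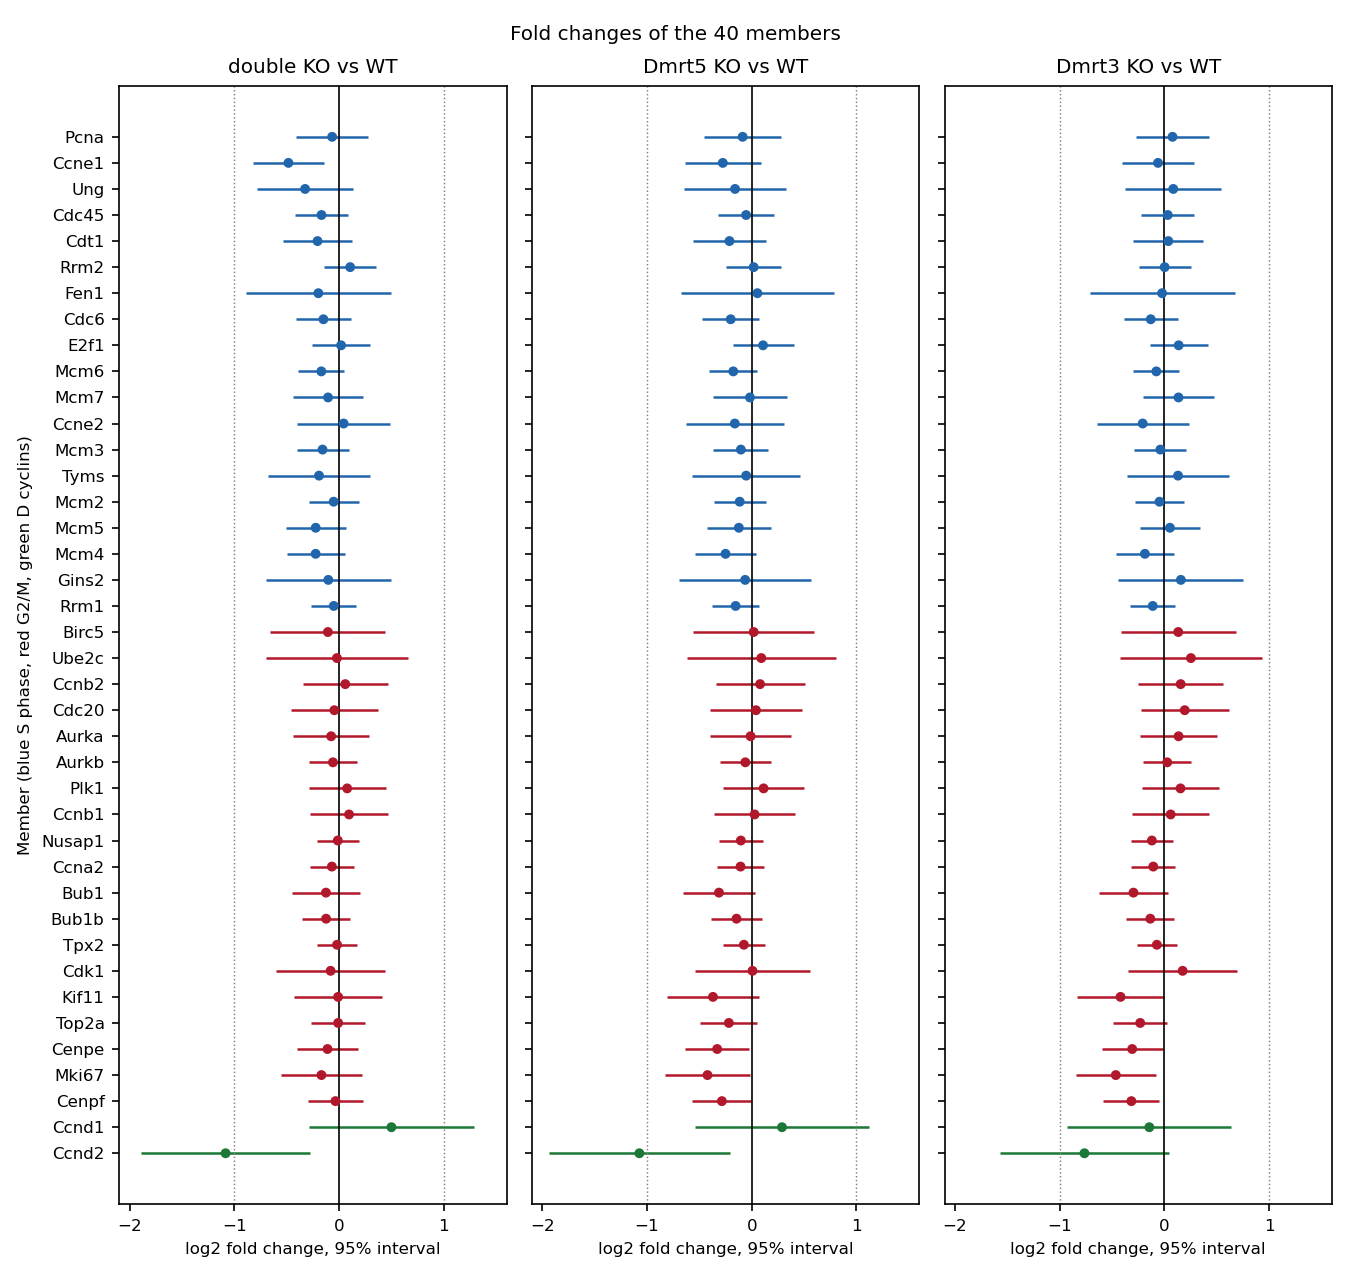
Log2 fold changes of the 40 members (points) with 95% intervals (lines) in double KO, Dmrt5 KO and Dmrt3 KO against WT, on a common axis. Members run from short to long transcripts within each group (S phase blue, G2/M red, D cyclins green), dotted lines mark a 2-fold change, and the intervals of all S-phase and G2/M members stay inside them while that of Ccnd2 reaches beyond.

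The S-phase members encode the licensing and copying machinery. Mcm2 to Mcm7 form the helicase ring that Cdc6 and Cdt1 load onto origins, and Cdc45 and the GINS subunit Gins2 activate it. Per kilobase of transcript in WT, Rrm2, the small subunit of ribonucleotide reductase, was the highest S-phase member at 194.0 CPM per kb and the second of all 40. Pcna, the sliding clamp of the polymerases, had 124.3 CPM per kb and Mcm7 113.8 CPM per kb, whereas Cdc6 had 18.2, Ccne2 8.88 and Fen1 1.59 CPM per kb. Fen1, the flap nuclease, is uncertain, since 84.2% of its exon bases are shared with overlapping genes, and so is Gins2, with 67.3% shared with Gse1.

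Among the helicase subunits, Mcm4, Mcm5 and Mcm6 had the lowest adjusted p in double KO against WT, without being called. Mcm6 had 225.8, 247.9, 261.4, 340.0 and 273.1 CPM in the double KO, 255.9, 264.8, 288.5 and 264.0 CPM in Dmrt5 KO, 280.3, 277.7, 279.1, 300.4 and 298.8 CPM in Dmrt3 KO, and 297.1, 328.4, 294.4 and 292.7 CPM in WT. All 4 Dmrt5 KO libraries lay below the WT libraries, while the double KO libraries overlapped WT only through replicate 4. The log2 difference from WT was -0.17 (SE 0.10, adjusted p = 0.453, edgeR) in the double KO, -0.27 without that replicate (adjusted p = 0.0633), and -0.18 (SE 0.11, adjusted p = 0.583) in Dmrt5 KO. Mcm4 averaged 171.2 ± 35.9 CPM in the double KO (SD, n = 5), 168.0 ± 12.6 CPM in Dmrt5 KO (n = 4), 175.6 ± 17.2 CPM in Dmrt3 KO (n = 5) and 199.9 ± 14.7 CPM in WT (n = 4), with edgeR adjusted p between 0.429 and 0.654 in the KO against WT comparisons. Mcm4 and Mcm5 were both at -0.22 in double KO against WT on the log2 scale, with an edgeR adjusted p of 0.429 for Mcm4 and 0.453 for Mcm5. Mcm2 was at -0.051, Mcm3 at -0.16 and Mcm7 at -0.10, all uncalled. Against Dmrt3 KO, Mcm5 in the double KO was at -0.27 (SE 0.13, edgeR adjusted p = 0.285).

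The loading and elongation factors were likewise uncalled. Their log2 values in double KO against WT were -0.15 for Cdc6, -0.21 for Cdt1, -0.17 for Cdc45, -0.066 for Pcna and -0.10 for Gins2. The nucleotide enzymes Rrm1, Rrm2 and Tyms (thymidylate synthase) were at -0.050, 0.11 and -0.19, and Ung, which removes uracil from DNA, was at -0.32 (SE 0.22). All had an edgeR adjusted p of at least 0.513. In Dmrt5 KO against WT, Mcm6, Rrm1 and Cdc6 were the 3 S-phase members whose libraries lay wholly below WT, at log2 values of -0.18, -0.15 and -0.20. Together with the 4 G2/M members Top2a, Cenpe, Cenpf and Nusap1 this made 7 of 40 members not overlapping WT, all lower, beside 4.34% of all tested genes lower and without overlap in that comparison. In Dmrt3 KO 1 member, Cenpf, lay wholly below WT, beside 1.67% of all tested genes, and in the double KO none did, beside 3.4%. None of these differences was called.

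Cyclin E1 binds CDK2 and drives entry into S phase, and Ccne1 was the S-phase member nearest to a call. It had 31.4, 37.1, 41.6, 50.7 and 28.3 CPM in the double KO, 45.2, 44.1, 44.4 and 40.7 CPM in Dmrt5 KO, 50.5, 43.1, 48.7, 53.7 and 57.1 CPM in Dmrt3 KO, and 45.8, 68.2, 55.3 and 42.2 CPM in WT. Double KO replicate 4 lay above 2 WT libraries, and the other 4 double KO libraries lay below every WT library. The difference in double KO against WT was -0.48 on the log2 scale (SE 0.16, adjusted p = 0.0953, edgeR), and in double KO against Dmrt3 KO -0.42 (SE 0.15, adjusted p = 0.165). Without double KO replicate 4 these values were -0.61 (adjusted p = 0.0145, edgeR) and -0.55 (adjusted p = 0.0253). Leaving out that library also raised the count of all genes called lower, from 619 to 1272 against WT and from 318 to 882 against Dmrt3 KO. With the length slope in the model the value in double KO against WT was -0.44 (adjusted p = 0.0335, edgeR). That alternative was chosen after seeing the data, and under it 8.42% of all tested genes were called lower. Within the double KO, replicate 4 is the library that stood apart in its mesenchyme, neuronal and subpallial markers. Libraries of the other genotypes with high mesenchyme sums were kept when it was left out. The part of these markers in the Ccne1 levels was not tested. Over leaving out each library in turn, the adjusted p against WT ran between 0.0145 and 0.301. In Dmrt5 KO against WT the value was -0.28 (SE 0.17, edgeR adjusted p = 0.583). Ccne2, the second cyclin E gene, was at 0.044 in double KO against WT, and E2f1, a transcriptional activator of replication genes, at 0.020, with adjusted p of 0.968 and 0.977.

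**Figure D2:**
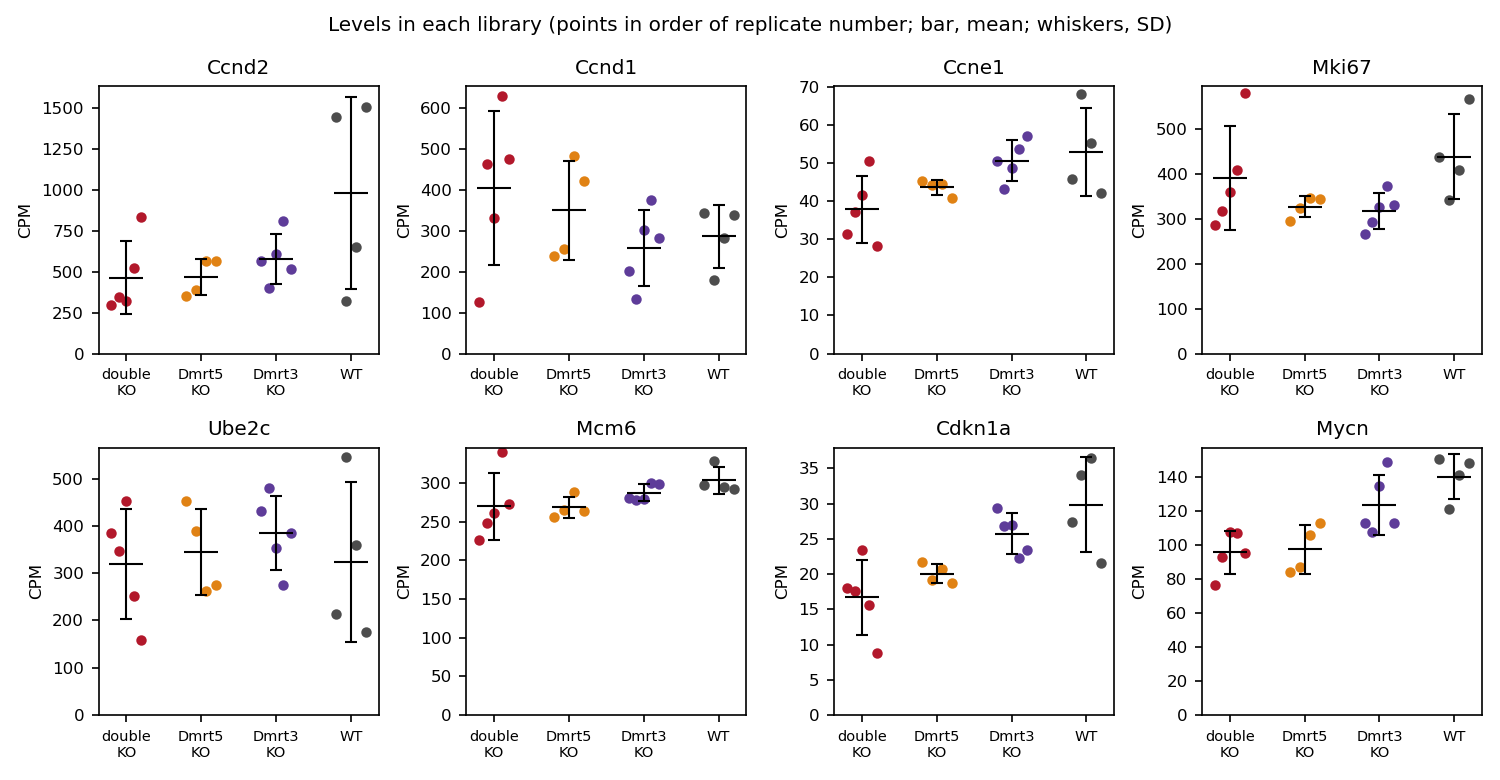
Levels in CPM, on linear axes from 0, of 6 members and of Cdkn1a and Mycn in each library of double KO, Dmrt5 KO, Dmrt3 KO and WT, with the mean (bar) and SD (whiskers). Ccnd2 spans 322.7 to 1504 CPM within WT, and Ube2c spans 175.6 to 546.5 CPM there.

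The G2/M members fall into cyclins and their kinases, the spindle checkpoint, motors and other spindle proteins, and the machinery of mitotic exit. Cyclin B1 and B2 with CDK1 drive entry into mitosis, and Ccnb1, Ccnb2 and Cdk1 were at 0.096, 0.060 and -0.080 in double KO against WT on the log2 scale. Ccna2, which acts in both S phase and G2, was at -0.068. Of the mitotic kinases, Aurka was at -0.075, Aurkb at -0.058 and Plk1 at 0.078, and the checkpoint kinases Bub1 and Bub1b were at -0.12 each. Cdc20, the activator of the anaphase-promoting complex, was at -0.044, Ube2c at -0.020 and Birc5, which encodes survivin, at -0.11. All these edgeR adjusted p lay between 0.676 and 0.990. Ube2c was the highest of all 40 members per kilobase, at 334.9 CPM per kb in WT, followed among G2/M members by Birc5 at 167.0 and Cdc20 at 141.0 CPM per kb, although 22.8% of the exon bases of Ube2c are shared with Tnnc2.

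In the single knockouts, the G2/M members with the lowest log2 values were mostly genes with long transcripts. Mki67 had 285.2, 318.3, 359.5, 408.8 and 580.0 CPM in the double KO, 295.5, 323.5, 345.8 and 343.6 CPM in Dmrt5 KO, 265.3, 292.9, 327.0, 372.7 and 330.8 CPM in Dmrt3 KO, and 437.4, 342.1, 408.1 and 566.2 CPM in WT. The highest double KO and the highest WT library were the 2 with the highest length slope. The log2 value against WT was -0.17 in the double KO (SE 0.18, adjusted p = 0.762, edgeR), -0.42 in Dmrt5 KO (SE 0.19, adjusted p = 0.415) and -0.46 in Dmrt3 KO (SE 0.18, adjusted p = 0.650).

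Cenpf and Cenpe, which encode large kinetochore proteins, and Kif11, the motor that separates the spindle poles, were also lowest in the single knockouts. Cenpf averaged 172.9 ± 34.9 CPM in the double KO (n = 5), 145.3 ± 6.26 CPM in Dmrt5 KO (n = 4), 142.2 ± 4.01 CPM in Dmrt3 KO (n = 5) and 177.0 ± 26.0 CPM in WT (SD, n = 4). Its log2 value was -0.28 in Dmrt5 KO and -0.32 in Dmrt3 KO against WT, with edgeR adjusted p of 0.436 and 0.650, and -0.034 in the double KO. Cenpe was at -0.33 and -0.31 and Kif11 at -0.37 and -0.42 in Dmrt5 KO and Dmrt3 KO against WT, again uncalled. Top2a, the topoisomerase that untangles sister chromatids, was at -0.22 and -0.23, and Tpx2 and Nusap1, which organise spindle microtubules, lay between -0.12 and -0.072 in the same 2 comparisons. The short genes went the other way in Dmrt3 KO, with Ube2c at 0.25, Cdc20 at 0.19 and Birc5 at 0.13, none of them called.

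Across the 19 G2/M members, Spearman's rho between transcript length and the log2 fold change was -0.211 in double KO, -0.816 in Dmrt5 KO and -0.796 in Dmrt3 KO, each against WT. Across the 19 S-phase members, whose lengths span a narrower range, it was 0.2, 0.00351 and -0.130. Across 16067 tested genes with a length it was -0.00712, -0.281 and -0.474. These are descriptions across genes of the same libraries, and the genes share depth and RNA quality. With the length slope of each library in the model, rho over the 40 members was -0.274, -0.403 and -0.513 in those comparisons, against -0.0424, -0.546 and -0.658 without it, and no G2/M member was called either way.

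**Figure D3:**
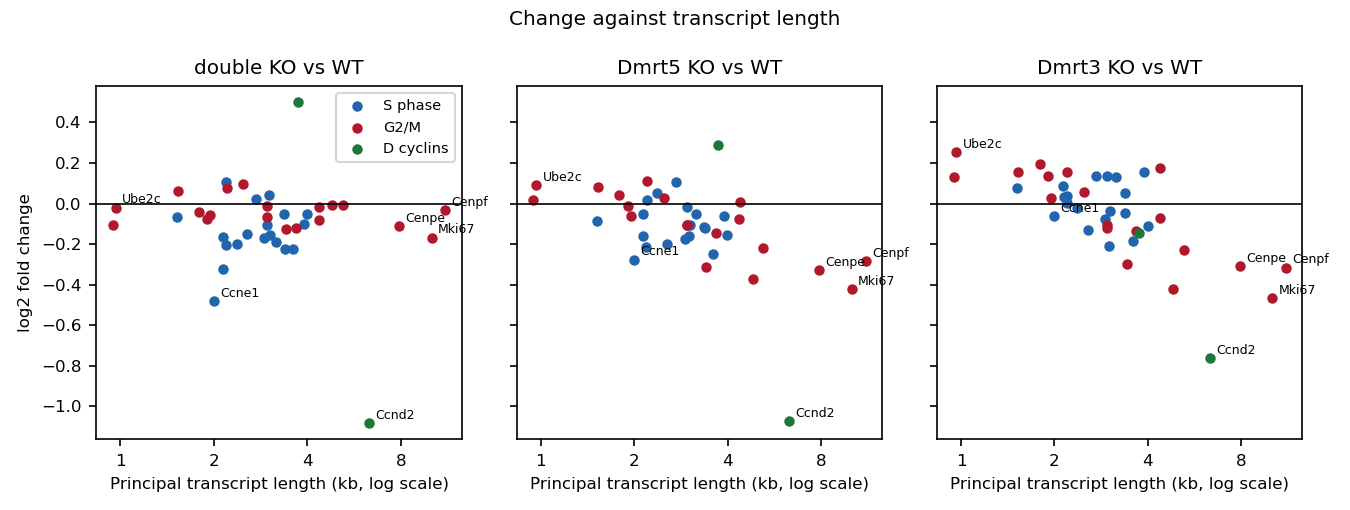
Log2 fold change of each member against the length of its principal transcript in kb (log scale) in double KO, Dmrt5 KO and Dmrt3 KO against WT. The longest G2/M members, Mki67, Cenpf and Cenpe, lie below 0 and the short Ube2c above 0 in both single knockouts, whereas in double KO against WT the G2/M members lie close to 0 at every length.

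The pattern was also present between libraries of 1 genotype. The ratio of Mki67 to Ube2c in CPM was 0.740 to 3.68 in the double KO (median 0.916), 0.653 to 1.32 in Dmrt5 KO (median 1.04), 0.609 to 1.35 in Dmrt3 KO (median 0.859) and 0.626 to 3.22 in WT (median 1.59). Both genes mark dividing cells, and the ranges of the ratio within WT and within the double KO were each wider than that of either single knockout. Ube2c was lowest and Mki67 highest in the same libraries, double KO replicate 5 with 157.8 and 580.0 CPM and WT replicate 4 with 175.6 and 566.2 CPM. The part of the length slope in the values of single members was not tested beyond the refits given here.

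**Figure D4:**
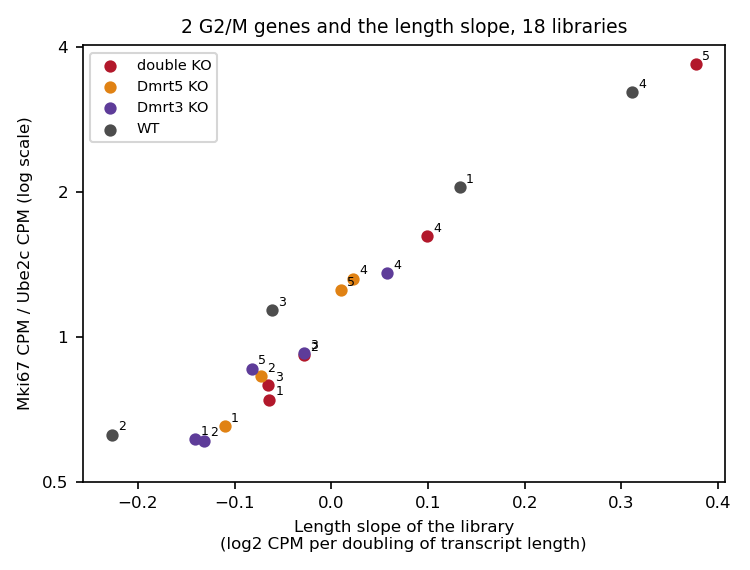
Ratio of Mki67 to Ube2c (both in CPM, log scale) against the length slope of each of the 18 libraries, coloured by genotype and numbered by replicate. WT replicate 4 and double KO replicate 5 lie at the upper right at ratios of 3.22 and 3.68, WT replicate 2 at the lower left at 0.626, and the libraries of the 4 genotypes are interspersed.

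The spread of members between libraries of a genotype differed between the genotypes. The median SD of log2 CPM was 0.28 for S-phase and 0.30 for G2/M members in the double KO, 0.099 and 0.098 in Dmrt5 KO, 0.14 and 0.15 in Dmrt3 KO, and 0.24 and 0.30 in WT. Over all tested genes it was 0.39, 0.20, 0.24 and 0.36 in those genotypes. The medians of the members were lower in each, but genes were not matched on expression level. Summed over the 19 S-phase members, libraries held 2704 to 3699 CPM in the double KO, 3181 to 3286 CPM in Dmrt5 KO, 3295 to 3570 CPM in Dmrt3 KO and 2986 to 4059 CPM in WT. Summed over the 19 G2/M members they held 3782 to 4660, 3788 to 4182, 3968 to 4262 and 3863 to 4976 CPM in the same genotypes. The WT range of the S-phase sum contained the ranges of both single knockouts, and for the G2/M sum all 4 ranges overlapped. Double KO replicate 1 had the lowest S-phase sum of the 18 libraries, 2704 CPM, and also the lowest G2/M sum, 3782 CPM.

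**Figure D5:**
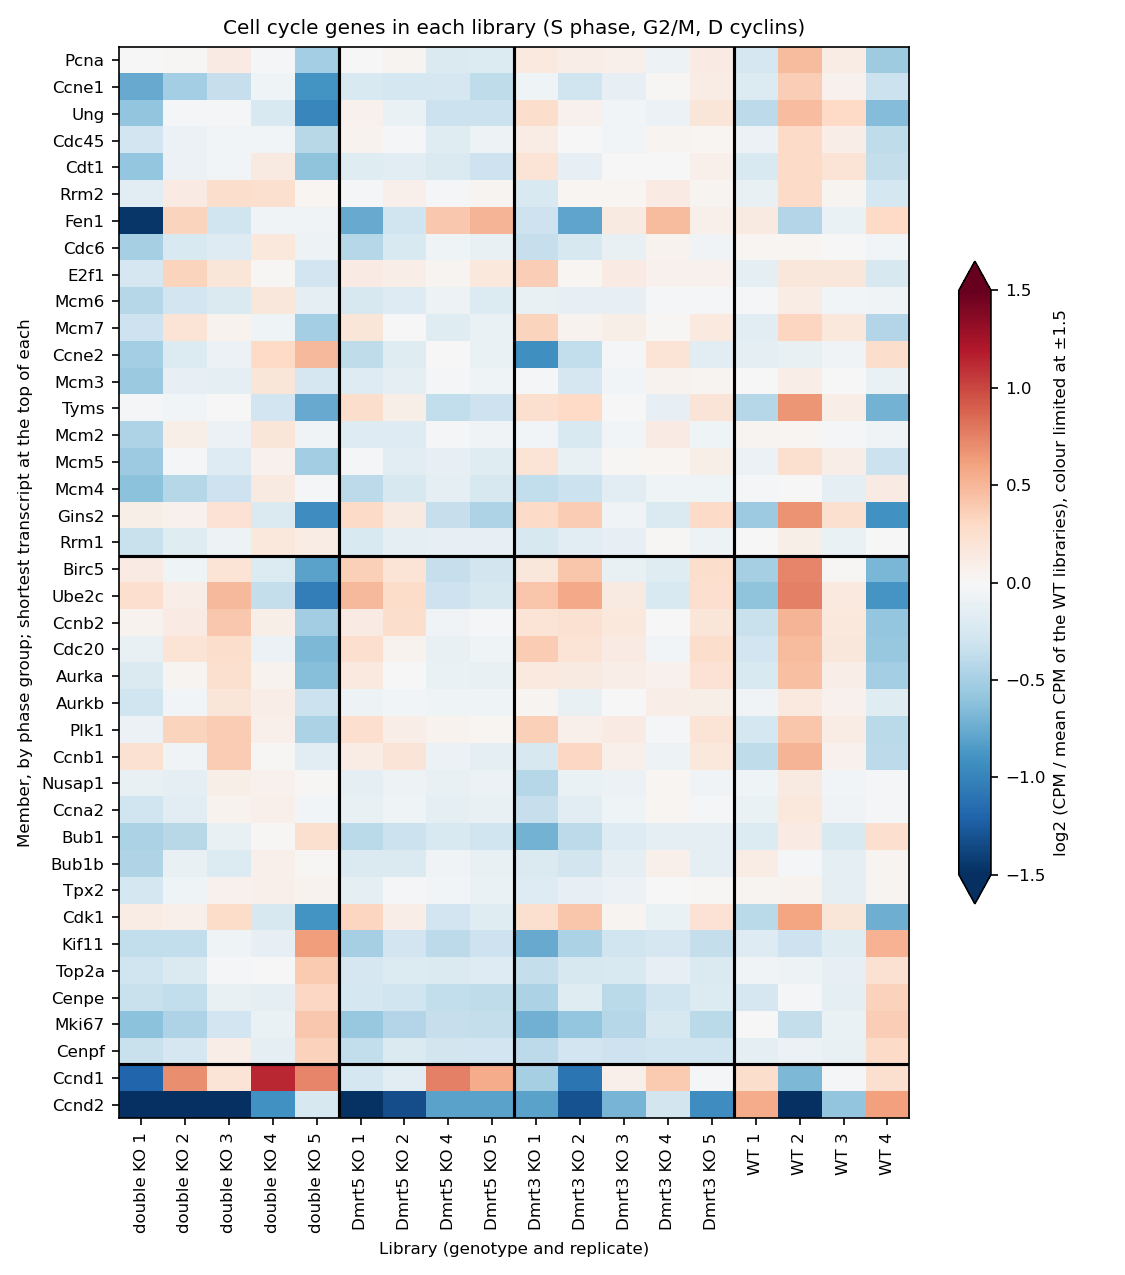
Each member in each library as log2 of its CPM over the mean CPM of the WT libraries (colour), with libraries in columns by genotype and members in rows by group, shortest transcript first. Within double KO and WT the short and long G2/M members change colour in opposite directions between libraries, most in double KO replicate 5, WT replicate 2 and WT replicate 4.

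The D cyclins had the largest standard errors of the 40 members in double KO against WT. Ccnd2, which encodes cyclin D2, had 298.1, 344.7, 319.3, 522.5 and 832.2 CPM in the double KO, 351.6, 389.0, 562.4 and 562.7 CPM in Dmrt5 KO, 562.9, 397.3, 607.1, 809.1 and 513.6 CPM in Dmrt3 KO, and 1446, 322.7, 652.8 and 1504 CPM in WT. WT replicate 2 lay as low as the double KO libraries, and every KO group overlapped WT. The log2 value was -1.08 in double KO (SE 0.38, adjusted p = 0.119, edgeR), -1.07 in Dmrt5 KO (SE 0.41, adjusted p = 0.298) and -0.76 in Dmrt3 KO (SE 0.38, adjusted p = 0.650) against WT. The double KO value was called without WT replicate 2, at -1.37 (adjusted p = 0.0204), or without double KO replicate 5, at -1.40 (adjusted p = 0.0336). With each library's length slope in the model, which was chosen after seeing the data, Ccnd2 was called lower in double KO against WT (-1.06, adjusted p = 7.2e-05), in Dmrt5 KO against WT (-0.58, adjusted p = 0.0431) and in double KO against Dmrt3 KO (-0.90, adjusted p = 0.000517). Of all tested genes, 8.42%, 1.8% and 3.09% were called lower in these 3 comparisons in that model. Its principal transcript is 6330 bases long, and its level followed the slope in WT, with the highest values in replicates 1 and 4.

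Ccnd1, which encodes cyclin D1, had 125.0, 462.5, 329.4, 627.5 and 475.7 CPM in the double KO, 238.5, 255.7, 480.7 and 420.8 CPM in Dmrt5 KO, 202.5, 133.6, 301.1, 373.7 and 280.8 CPM in Dmrt3 KO, and 343.8, 178.3, 282.0 and 338.1 CPM in WT. Of the exon bases of Ccnd1, 23.4% are shared with LTO1. The groups overlapped throughout. Its log2 value was 0.50 (SE 0.38, edgeR adjusted p = 0.583) in double KO, 0.29 (SE 0.39, adjusted p = 0.833) in Dmrt5 KO and -0.14 (SE 0.37, adjusted p = 0.865) in Dmrt3 KO against WT, the last of which was 0.094 with the length slope in the model. In the double KO, Ccnd1 and Ccnd2 thus lay on opposite sides of WT, and neither was called.

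Set against the single knockouts, the double KO differed from Dmrt3 KO by a median of -0.14 over the S-phase members and 0.037 over the G2/M members, and from Dmrt5 KO by -0.0394 and 0.0388. Adding the length slope to the model gave medians of -0.0803 and 0.0622 against Dmrt3 KO and 0.0214 and 0.102 against Dmrt5 KO, so the S-phase median against Dmrt5 KO changed sign. These comparisons share the double KO libraries. Against Dmrt3 KO the G2/M members with the lowest adjusted p were Cenpf at 0.28, Kif11 at 0.41 and Top2a at 0.22 on the log2 scale, with edgeR adjusted p of 0.244, 0.275 and 0.323. The same 3 genes led against Dmrt5 KO, at 0.25, 0.36 and 0.21, with an adjusted p of 0.997 each. For the interaction, the members with the lowest p were also long G2/M genes, with Cenpf at 0.57 (SE 0.18, adjusted p = 0.406, edgeR), Mki67 at 0.72 (SE 0.26, adjusted p = 0.529) and Kif11 at 0.78 (SE 0.28, adjusted p = 0.529). Spearman's rho between length and the interaction was 0.671 over the 40 members and 0.545 over all genes, and it was 0.237 over the members with the length slope in the model. The interaction was the least precise comparison, with 30 of 40 intervals within 2-fold.

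Other cell cycle genes outside the 40 gave values of similar size. Of 42 further replication genes, 0 were called by edgeR in any comparison, with a median log2 of -0.15 in double KO, -0.14 in Dmrt5 KO and 0.0141 in Dmrt3 KO against WT and with 2, 7 and 4 at an unadjusted p under 0.05. DESeq2 called 1 of them lower in Dmrt5 KO against WT, beside 1.22% of all genes it gave an adjusted p. With the length slope in the model edgeR called 5 of the 42 lower in double KO and 3 lower in Dmrt5 KO against WT, beside 8.42% and 1.8% of all tested genes. Of 55 further mitosis genes, 0 were called by edgeR or DESeq2, with medians of -0.0197, -0.0392 and -0.027 in the same comparisons and 0, 4 and 4 at an unadjusted p under 0.05. The list of 35 G1 regulators and cell cycle inhibitors, of which 33 were tested, held the only genes of these 3 lists that edgeR called without the slope.

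Of these 33 genes, 2 fell in double KO against WT and none rose, beside 3.81% of all tested genes lower and 2.42% higher. In the length slope model 3 were called lower and 1 higher, beside 8.42% lower and 7.72% higher of all tested genes, the added calls being E2f7, a repressor of E2F targets, at -0.49 (adjusted p = 0.00454) and the CDK inhibitor gene Cdkn2d at 0.52 (adjusted p = 0.00776). In Dmrt5 KO against WT none was called by edgeR, DESeq2 called 1 higher and 1 lower, beside 1.07% and 1.22% of all genes, and edgeR with the slope called 2 lower, which were Mycn and Cdkn1a. Mycn, which encodes N-Myc, a driver of progenitor growth and division, had 76.5, 93.1, 107.4, 106.9 and 95.3 CPM in the double KO and 150.3, 121.1, 141.3 and 148.1 CPM in WT, without overlap. The log2 difference was -0.55 (SE 0.13, adjusted p = 0.0155, edgeR). Without WT replicate 4 and double KO replicate 5 together, its value was -0.49 with an adjusted p of 0.0856. In Dmrt5 KO it had 83.9, 86.8, 106.1 and 113.0 CPM, all below WT, with a log2 value of -0.52 that was not called (adjusted p = 0.0902, edgeR). Mycn was called with the length slope in the model in Dmrt5 KO against WT, at -0.48 (adjusted p = 0.0326), and in double KO against Dmrt3 KO, at -0.44 (adjusted p = 0.0205), where it was at -0.37 without the slope (adjusted p = 0.134).

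Cdkn1a, which encodes the CDK inhibitor p21, had 18.1, 17.6, 23.4, 15.6 and 8.78 CPM in the double KO and 27.3, 34.0, 36.4 and 21.6 CPM in WT. The groups overlapped through double KO replicate 3 and WT replicate 4. Its level fell with a log2 difference of -0.84 (SE 0.21, adjusted p = 0.0199, edgeR), and the call was lost without WT replicate 2 (adjusted p = 0.0617) or WT replicate 3 (adjusted p = 0.0782). Cdkn1a was also called lower with the length slope in the model in Dmrt5 KO against WT, at -0.69 (adjusted p = 0.00542), and in double KO against Dmrt3 KO, at -0.44 (adjusted p = 0.0309), where edgeR without it gave -0.57 (adjusted p = 0.303) and -0.63 (adjusted p = 0.101). Against Dmrt3 KO, 1 gene of the list rose in the double KO, beside 1.74% of all tested genes higher. Tfdp2, an E2F dimerisation partner, had 76.5, 83.2, 90.2, 111.0 and 138.0 CPM in the double KO and 55.9, 71.7, 65.5, 73.8 and 68.6 CPM in Dmrt3 KO, without overlap, a difference of 0.57 (SE 0.14, adjusted p = 0.0307, edgeR). That call was lost without Dmrt3 KO replicates 1, 3 or 5 or double KO replicate 5, with adjusted p up to 0.0983. With the length slope in the model, the value was smaller, at 0.39, and called (adjusted p = 0.00855, edgeR). In that model 2.4% of all tested genes were called higher against Dmrt3 KO. Tfdp2 was at 0.20 in double KO against WT, uncalled.

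Markers of the cell types in the tissue moved beside these genes. In double KO against WT, edgeR called 2.42% of all tested genes higher and 3.81% lower. With the length slope in the model these shares were 7.72% and 8.42%, so calls rose over all genes too. Of 12 markers of the subpallial lineage, 11 rose in double KO against WT, with summed levels of 1790 to 3307 CPM in the double KO and 863 to 1188 CPM in WT. Of 16 neuronal markers 2 rose by edgeR, 5 were called higher by DESeq2, beside 3.19% of all genes, and 8 by edgeR with the length slope, with a median log2 of 0.62 and sums of 3787 to 8872 CPM in the double KO and 3863 to 4812 CPM in WT. Of 8 intermediate progenitor markers 3 fell and 1 rose, with sums of 506.7 to 765.6 CPM in the double KO and 850.1 to 981.8 CPM in WT. The median of that list was -0.0249. Eomes was its lowest gene at -2.04 (adjusted p = 6.63e-07, edgeR), whereas Insm1 was its highest at 0.51 (adjusted p = 0.015, edgeR). Of 14 radial glia and progenitor markers 1 rose, and 4 were called higher and 2 lower with the length slope, with sums of 5378 to 6306 CPM in the double KO and 4415 to 5803 CPM in WT. Mesenchyme markers, from cells outside the neural tissue, had a median of -1.17 with 0 of 10 called by edgeR, 2 at an unadjusted p under 0.05 and 1 lower by DESeq2, beside 4.5% of all genes, and sums of 40.5 to 2088 CPM in the double KO, where replicate 4 alone exceeded 350.6 CPM, and 756.3 to 2432 CPM in WT. Erythroid markers had a median of -1.04 with 1 of 8 lower, or 3 with the length slope, and sums of 1234 to 5654 CPM in the double KO and 2890 to 16550 CPM in WT. The medians of the endothelial and microglial markers were -0.49 and 0.22, with none of 8 called in either list by edgeR. All 8 endothelial values were below 0, 4 had an unadjusted p under 0.05, DESeq2 called 1 lower and edgeR with the length slope 2, while no microglial marker was called by either. The part of these shifts in the levels of the cell cycle genes was not tested.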

How the data were processed

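RNA was sequenced from 18 libraries of dissected E12.5 cortex. Per the labels' protocols the library kit was TruSeq RNA Sample Prep Kit v2, which does not mark strand. The authors deposited raw read counts, 1 per Ensembl gene and library. The submitters' processing notes list build mm10 and, with no role given, STAR 2.3.0e, featureCounts 1.4.6-p1, DESeq2 1.8.2, CASAVA 1.8.2, FastQC 0.10.1 and bcl2fastq. The annotation release and the treatment of multi-mapping reads are not stated, so genes that overlap others are uncertain.

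Symbols, coordinates and lengths (longest principal transcript) came from GENCODE M21, which matched 36602 of 38355 identifiers. Unmatched identifiers held 0.397% of counts. The counts were tested with edgeR 4.0.16 (R 4.3.3): filterByExpr by genotype left 16236 genes, TMM scaled the libraries, and 1 quasi-likelihood fit with a mean for each genotype covered all libraries. P-values were adjusted by Benjamini-Hochberg over all tested genes, with a threshold of 0.05. The fit was tested on simulated counts that lacked the length slopes and cell type differences of these libraries, so that test does not cover them. CPM were computed here from the counts, with a prior count of 2 for log2 CPM. SE and 95% intervals were derived from the two-sided F test. The members named in each comparison were, per group, the 3 uncalled genes with the lowest adjusted p, with the others given as short values, and from other lists the called genes. All members and gene lists were chosen with earlier results of these data known. DESeq2 1.42.0, other size factors, no filter, only the genotypes compared, a replicate block and leaving out each library were alternatives, and 2 more were added after seeing the data.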

Additional observations from a re-analysis of the deposited data

Results flagged for a closer look

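For each of the 40 members in each of the 4 genotypes, the 18 libraries were examined for 1 library far from the others of its genotype. This was so in 8 of 160 groups, and chance alone gives about 1 in 20. In double KO replicate 5, Kif11 was high at 293.5 CPM (146.8 to 182.3 CPM in the other double KO libraries) and Pcna low at 132.6 CPM (184.6 to 204.8 CPM in the others). In Dmrt3 KO replicate 1, E2f1 was high at 133.0 CPM (104.9 to 112.1 CPM in the others) and Cenpf low at 135.2 CPM (142.9 to 145.5 CPM in the others). In WT replicate 4, Kif11 was high at 273.8 CPM (153.6 to 167.3 CPM in the others) and Cenpf high at 215.8 CPM (161.5 to 167.0 CPM in the others). In WT replicate 2, Mcm6 was high at 328.4 CPM (292.7 to 297.1 CPM in the others). In WT replicate 3, Tpx2 was low at 260.3 CPM (295.2 to 296.5 CPM in the others). WT replicate 4 and double KO replicate 5 also had the 2 highest length slopes, 0.311 and 0.377.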

How the results depend on the processing

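The median log2 fold changes of the S-phase and G2/M members moved by less than the spread between replicates under every alternative run. This limit was the SD of library medians within genotypes, pooled over the 4 genotypes. It is loose, since that SD was 0.22 for S-phase and 0.14 for G2/M members within WT. In Dmrt5 KO it was 0.014 and 0.046. Several medians lay near 0, so a change of sign could stay within the limit. With the length slope the S-phase median changed sign in Dmrt3 KO against WT, in double KO against Dmrt5 KO and for the interaction (-0.0555 to 0.0645). Counts of called members stayed at 0 except where named. With the length slope in the model, 1 S-phase member (Ccne1) was called lower in double KO against WT, and 1 D cyclin (Ccnd2) in double KO against WT, in Dmrt5 KO against WT and in double KO against Dmrt3 KO. Over leaving out each library in turn, called S-phase members ran from 0 to 1 lower in double KO against WT and 0 to 1 lower against Dmrt3 KO, and D cyclins 0 to 1 lower in double KO against WT. Single values that changed sign were all uncalled. With the length slope these were Ccnd1 at 0.094 in Dmrt3 KO against WT, -0.0301 in double KO against Dmrt5 KO and -0.124 for the interaction, and Ccnd2 at -0.324 for the interaction. Ccnd2 in double KO against Dmrt5 KO was 0.0236 with no filter and ran from -0.33 to 0.114 over single left-out libraries, where Ccnd1 ran from -0.00273 to 0.442, and from -0.316 to 0.0199 in Dmrt3 KO against WT. The cause of these changes was not tested.

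Counts over all genes moved more. In Dmrt3 KO against WT, 56 genes were called lower with DESeq2, 2 with only the genotypes compared, 68 with the length slope, and 3 without WT replicate 4 and double KO replicate 5 together (1 to 5 over single left-out libraries). In Dmrt5 KO against WT, called higher were 31 with no filter, 198 with DESeq2, 215 with the length slope and 28 without those 2 libraries (14 to 89 over single ones), and called lower were 226 with DESeq2, 52 with only the genotypes compared and 292 with the length slope (40 to 170). In double KO against WT, called higher were 640 with DESeq2, 131 with only the genotypes compared and 1254 with the length slope (252 to 734), and called lower were 237 and 1367 with the last 2 (465 to 1272). In double KO against Dmrt3 KO, called higher were 483 with DESeq2 and 148 with only the genotypes compared (167 to 555), and called lower were 210 with only those and 502 with the length slope (229 to 882). In double KO against Dmrt5 KO, called higher were 1 with no filter, 11 with DESeq2, 12 with the length slope and 1 without the 2 libraries (1 to 5), and called lower were 97 with DESeq2, 19 with only the genotypes compared and 109 with the length slope (33 to 74). For the interaction, called higher were 66 with DESeq2 and 1 with the length slope (0 to 7), and called lower 61 with DESeq2 (15 to 31). With only the genotypes compared, Mycn, Cdkn1a and Tfdp2 were no longer called (adjusted p = 0.0867, 0.219 and 0.114, edgeR).

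Of 24 pairs of libraries with the same replicate number, 15 had a correlation of their deviations above 0.1, with a range of -0.357 to 0.703. Pairs with different numbers were not compared, so whether replicate numbers mark a shared origin was not tested. With the replicate number as a block, no member was called in any comparison. Over all genes the replicate block gave 2 called lower in Dmrt3 KO against WT, 184 higher and 196 lower in Dmrt5 KO against WT, and 1 higher in double KO against Dmrt5 KO. Without the block these counts were 1, 55, 112 and 2.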
